A study of Mus musculus with 5 samples.

Results

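HSF1 peaks in gene deserts are described here. A peak was taken as a desert peak by position alone: its summit lay inside no protein-coding gene of the GRCm38 (mm10) annotation and more than 100 kb from the nearest end of one. This rule selected 694 of the 3312 control peaks and 837 of the 3644 NMDA peaks on chromosomes 1 to 19 and X, together 1531 of the 6962 peaks in both lists. The binding sites come from ChIP-seq, in which chromatin bound by HSF1 is precipitated with an antibody and sequenced, of wild-type primary cortical neurons from Swiss-Webster mouse embryos at embryonic day 16, at day 13 in culture. The control group was left untreated, and the NMDA group received the glutamate receptor agonist NMDA at 50 µM for 10 min followed by 20 min of recovery without the drug. Each group had 2 ChIP libraries, and 1 input library was made from neurons that received no NMDA. The NMDA group therefore had no input of its own condition, and the cultures are embryonic neurons in a dish, not adult cortex.

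HSF1 is the transcription factor that switches on chaperone genes when proteins misfold. After stress it forms trimers that bind heat shock elements, which are inverted repeats of the bases GAA. Gene deserts are long stretches without protein-coding genes; they can hold distant enhancers, noncoding genes and repeats, and many of them flank developmental and neuronal adhesion genes.

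Genome sequence was not used here, so the letters under most desert peaks are not shown. Promoter windows of RefSeq (GRCm38.p6), which cover 250 bases before to 50 bases after a gene start, reached into 5 desert peaks, all at long noncoding RNA (lncRNA) genes. Of these 5, the NMDA peak at the start of Mir100hg, host of the microRNAs miR-100, let-7a-2 and miR-125b-1, was the only one whose summit lay inside the window. Its stretch is shown beside that of a control peak at 1700023F02Rik, the widest control overlap, as a stretch with and one without the 8-letter core of a heat shock element under the peak; the rest of the 1700023F02Rik window, outside the peak, does hold 1 core. Capitals mark TTCNNGAA, which is 2 GAA units facing away from each other.
Mir100hg, NMDA peak, chr9:41376276-41376419, + strand: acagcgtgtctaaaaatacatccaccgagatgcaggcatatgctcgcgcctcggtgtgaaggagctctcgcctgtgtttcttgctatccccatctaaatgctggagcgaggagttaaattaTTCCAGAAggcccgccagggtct
1700023F02Rik, control peak, chr10:66200650-66200741, - strand: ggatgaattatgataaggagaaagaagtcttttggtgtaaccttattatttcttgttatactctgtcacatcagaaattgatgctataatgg
The match in the Mir100hg stretch, at bases 41376397 to 41376404 of chromosome 9, begins 75 bp after the peak summit and 129 bp before the annotated gene start. Both arrangements of the core, TTCNNGAA and GAANNTTC, each of which reads the same on both strands, were searched. The other 4 stretches, of 48, 92, 52 and 79 bases, held neither. Of all 32851 promoter windows, 8.52% held TTCNNGAA, 7.86% held GAANNTTC and 15.1% held at least one of them. Within the same 144-base stretch of every window, 4.18% held TTCNNGAA and 7.52% held either. A match of this length is a description of the letters and not evidence of a binding site.

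The microRNAs encoded at Mir100hg and at the related host gene region of Mir99ahg are shown because both regions held several NMDA desert peaks, given further on. Capitals mark the seed, bases 2 to 8.
miR-100-5p: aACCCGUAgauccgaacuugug
miR-99a-5p: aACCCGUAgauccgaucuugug
miR-125b-5p: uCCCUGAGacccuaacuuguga
let-7c-5p: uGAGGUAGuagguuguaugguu
miR-100-5p, from the Mir100hg region on chromosome 9, and miR-99a-5p, from the Mir99ahg region on chromosome 16, share one seed. Both regions also encode a copy of miR-125b-5p and a let-7 family member.

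Deserts held fewer HSF1 peaks than their share of the length. They made up 712.6 Mb, or 27.7% of the chromosome length, and contained 21.0% of control peaks (exact 95% binomial interval 19.6 to 22.4%) and 23.0% of NMDA peaks (21.6 to 24.4%). That is 0.974 control and 1.17 NMDA peaks per Mb, or 0.756 and 0.828 times the share expected from length. On the autosomes alone the values were 1.06 and 1.27 per Mb, or 0.767 and 0.838 times. Bases that reads cannot reach were not taken out of the length. The peaks between genes, within 100 kb but more than 1000 bp from a gene end, numbered 684 and 869 and were no denser, at 0.861 and 1.09 per Mb. Peaks inside genes reached 1.47 and 1.60 per Mb, and those within 1000 bp of a gene end 6.28 and 4.69 per Mb. The low density of desert peaks was thus shared with the rest of the intergenic sequence.

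**Figure D1:**
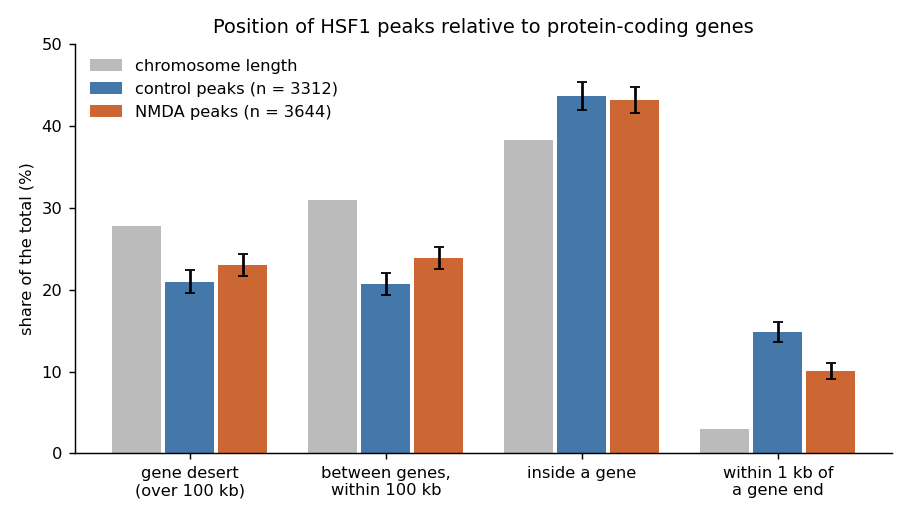
Share of chromosome length (grey) and of control and NMDA HSF1 peaks (blue, orange) in 4 positions relative to protein-coding genes, in percent, with exact 95% binomial intervals. Both peak bars lie below the length bar in deserts and between genes, and above it within 1 kb of gene ends.

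The desert share was 2.02 percentage points larger in the NMDA list than in the control list (95% interval of the difference, by Newcombe's method, 0.0654 to 3.96). The number of desert peaks was 1.21 times as large, against 1.10 times for the whole list. Peaks between genes gained 3.20 points (1.24 to 5.14), peaks within 1000 bp of a gene end fell by 4.75 points (the interval of the change runs from -6.31 to -3.20), and peaks inside genes had a change of -0.460 points (-2.79 to 1.87). The lower limit of the interval for deserts is close to 0. It passed 0 on the autosomes alone (-0.00513 to 3.89), with q below 0.05 (-0.0191 to 4.50) and with genes of all kinds as bounds (-0.0656 to 2.18). The gain in deserts also depended on the distance that defines one: at over 50 kb the difference was 4.33 points, and at over 250 kb it was -0.198 points (-1.78 to 1.38). Each condition has a single list that combines its libraries, so there are no replicate values and no test between conditions is possible. Peaks are not replicates, and the intervals here and below cover counting error only.

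Most desert peaks were narrow and of low enrichment. The authors' fold enrichment had a median of 2.61 in control desert peaks (distribution-free 95% interval 2.57 to 2.67) and 2.69 in NMDA desert peaks. Peaks between genes had medians of 2.67 and 2.75, peaks inside genes 2.61 and 2.69, and peaks at gene ends 2.71 and 2.79. The 90th percentile was 3.08 for control and 3.23 for NMDA desert peaks, against 3.08 and 3.55 between genes. Median width was 306 bp (298 to 315) in control deserts and 292 bp (287 to 298) in NMDA deserts. The NMDA value was below the 306 bp (299 to 312) of NMDA peaks between genes, whereas the control value lay beside their 305 bp (298 to 313). Widths ran from 170 to 1171 bp in control deserts and from 180 to 989 bp in NMDA deserts.

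Many of these fold values were identical. In the control list 72 desert peaks shared the commonest fold, 2.67, and in the NMDA list 86 shared 2.58. Of the control desert peaks 59.8% had a fold that was a whole multiple of 0.103, and of the NMDA desert peaks 70.1% had one of 0.108, within 0.002 of a step. Over all peaks the shares were 61.1% and 67.7%. Among desert peaks on a whole step, the median was 26 steps for control and 25 for NMDA. Peaks next to each other in rank therefore often cannot be ordered.

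Of the control desert peaks, 460 (66.3%, 62.6 to 69.8%) had a q below 0.05, against 68.9% of all control peaks. Of the NMDA desert peaks, 623 (74.4%, 71.3 to 77.4%) did, against 76.3% of all NMDA peaks. Both desert shares lay near the share of their whole list. The difference between desert peaks and peaks between genes was -3.02 points (-7.93 to 1.92) for control and -0.941 points (-5.06 to 3.17) for NMDA.

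Desert peaks of at least 4-fold were found almost only in the NMDA list, and there they were rarer than among all peaks between genes. With high signal taken as a fold of at least 4, 25 of 837 NMDA desert peaks reached it (2.99%, 1.94 to 4.38%), against 4.99% of all NMDA peaks and 51 of 869 between genes (5.87%, 4.40 to 7.64%). The difference between deserts and the sequence between genes was -2.88 points (-4.89 to -0.929). In the control list 1 of 694 desert peaks reached it (0.144%, 0.00365 to 0.800%), against 0.513% of all control peaks and 2 of 684 between genes, a difference of -0.148 points (-0.925 to 0.552). At a fold of at least 5, the NMDA list held 8 desert peaks and 30 between genes, and the control list held 0 of either. By distance, the NMDA share of at least 4-fold between genes was 4.29% at 1 to 10 kb, 8.19% at 10 to 50 kb and 3.52% at 50 to 100 kb. Only the middle value stood well above the 3.51% and 4.05% of the desert bins at 100 to 250 and 250 to 500 kb.

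Fold values of the 2 lists have separate scales, so high signal was also taken as the top 10% of each list by fold. Ties widened this class to 13.6% of the control list, from a fold of 3.08, and to 10.8% of the NMDA list, from a fold of 3.44. It held 76 control desert peaks (11.0%, 8.73 to 13.5%) against 12.9% of control peaks between genes, a difference of -1.91 points (-5.36 to 1.52). It held 57 NMDA desert peaks (6.81%, 5.20 to 8.73%) against 12.8% between genes, a difference of -5.96 points (-8.79 to -3.16). In the NMDA list the deficit of strong desert peaks was present on both definitions, while in the control list both intervals include 0. With deserts bounded by genes of all kinds, the NMDA difference at 4-fold shrank to -1.11 points and its interval included 0 (-3.10 to 2.03).

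**Figure D2:**
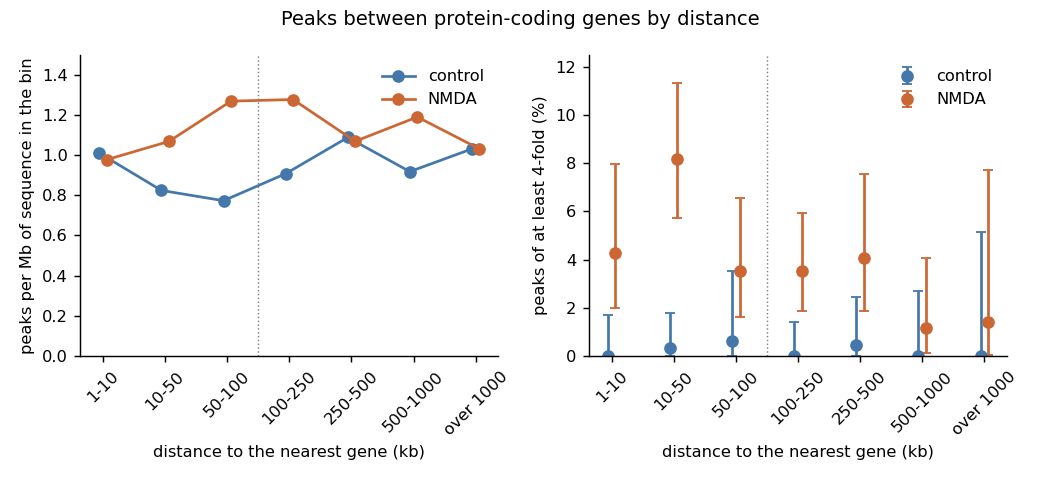
Peaks between protein-coding genes by distance of the summit to the nearest gene end, in kb: peaks per Mb of sequence in the bin (left) and percent of peaks of at least 4-fold with exact 95% binomial intervals (right), for control (blue) and NMDA (orange). Deserts lie to the right of the dotted line; the NMDA share of strong peaks was highest at 10 to 50 kb (8.19%) and was 1.14 to 4.05% in the 4 desert bins.

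Within deserts, peak density showed no steady fall with distance from genes. The median distance to the nearest protein-coding gene was 317 kb for control peaks (quartiles 186 and 565 kb) and 301 kb for NMDA peaks (178 and 551 kb). In the bins of 100 to 250, 250 to 500, 500 to 1000 and over 1000 kb, the control list had 0.907, 1.09, 0.918 and 1.03 peaks per Mb. The NMDA list had 1.28, 1.07, 1.19 and 1.03 per Mb in the same bins. Each list had 70 peaks over 1000 kb from any protein-coding gene, so the surplus of NMDA peaks lay in the nearest bin (370 against 263) and in that of 500 to 1000 kb (175 against 135). The strong NMDA peaks numbered 13 of 370 (3.51%), 9 of 222 (4.05%), 2 of 175 (1.14%) and 1 of 70 (1.43%) from the nearest bin to the farthest, and the intervals of these shares overlap.

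The 25 strong NMDA desert peaks lay on 17 chromosomes, 108 to 1441 kb from a protein-coding gene. They were wider than the rest, with a median of 440 bp (257 to 687) against 291 bp. None overlapped a control peak, a count that is small in any case, since 2.55% of all NMDA peaks and 0.836% of NMDA desert peaks did. The nearest control summit to any of them was 20.1 kb away. Inside a noncoding gene lay 3 of the 25 (12%), close to the 12.7% of all NMDA desert peaks.

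The strongest had a 10.1-fold enrichment (−log10 q 61.4, width 687 bp) at bases 58484661 to 58485347 of chromosome 14, 372 kb from Fgf9, a fibroblast growth factor gene. It ranked 12 among all NMDA peaks, and the nearest control summit was 171 kb away. Next came a 9.04-fold peak at 41665217 to 41665732 of chromosome 18, 210 kb from Prelid2 and 1118 kb from Kctd16, which encodes an auxiliary subunit of the metabotropic GABA receptor. An 8.91-fold peak at 40865762 to 40866313 of chromosome 11 lay 111 kb from Ccng1 (cyclin G). These 3 stood clear of the others, since the next one reached 6.72-fold.

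The 6.72-fold peak, at 32492522 to 32492963 of chromosome 13, was inside the lncRNA gene Gm40876 and 542 bp from its end; the nearest protein-coding genes were Gmds, an enzyme of fucose synthesis, at 154 kb and the kinase gene Mylk4 at 208 kb. A 5.85-fold peak at 39751661 to 39752106 of chromosome 16 lay 232 kb from Lsamp, a neuronal adhesion gene. A 5.59-fold peak at 111996257 to 111996696 of chromosome 11 lay 270 kb from Gm11677 and 786 kb from the transcription factor gene Sox9.

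Chromosome 1 held 3 of the 10 strongest. A 5.49-fold peak at 75925174 to 75925658 lay between the anion exchanger gene Slc4a3 (366 kb) and the ephrin receptor gene Epha4 (1442 kb). A 5.27-fold peak at 124982960 to 124983454 lay 137 kb from Dpp10, an auxiliary subunit of potassium channels. A 4.91-fold peak at 142055117 to 142055714 was the most remote of the 10, 1441 kb from the potassium channel gene Kcnt2. The remaining one, of 4.95-fold at 103936489 to 103936929 of chromosome 8, lay 165 kb from Cdh5, the cadherin gene of endothelium, and 1151 kb from Cdh11.

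In the control list, the 10 strongest desert peaks ran from 3.39 to 4.70-fold, and apart from the first none passed 3.59. The first, at 3019022 to 3019490 of chromosome 9, lies before the first protein-coding gene of that chromosome, 316 kb from Alkbh8, and had a −log10 q of 137.9. It overlapped an NMDA peak of 3.91-fold with a −log10 q of 83.1. The second was a 3.59-fold peak at 12394152 to 12394377 of chromosome 1, 298 kb from Sulf1, an enzyme that trims heparan sulfate. The third, of 3.51-fold at 9169576 to 9169814 of chromosome 17, was inside the lncRNA gene Gm52287. The other 7 were nearest to Fam174a, Prdm1, Isl1, Fam241a, Map3k7, Gm11677 and Chodl; Prdm1 and Isl1 encode developmental transcription factors, at 186 and 283 kb.

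**Figure D3:**
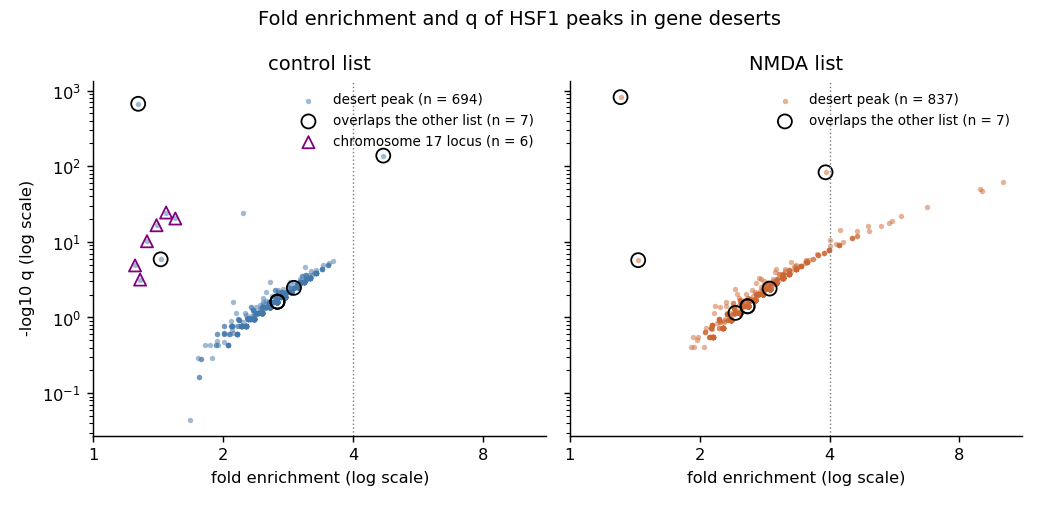
Fold enrichment against −log10 q, both on log scales, for the 694 control (left) and 837 NMDA (right) desert peaks. Circles mark the 7 overlapping pairs, triangles 6 control peaks of a chromosome 17 locus, and the dotted line a fold of 4; most peaks follow one rising band, and the pairs on chromosomes 2 and 9, the chromosome 17 locus and a single control peak of 2.22-fold on chromosome 3 lie above it.

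Desert peaks were rarely found in both conditions. With at least 1 bp of overlap counted, 7 of 694 control desert peaks (1.01%, 0.406 to 2.07%) overlapped an NMDA peak, against 2.84% of all control peaks. The same 7 pairs were 0.836% (0.337 to 1.72%) of NMDA desert peaks, against 2.55% of all NMDA peaks. Compared with peaks between genes, the share was lower by 2.06 points in the control list (interval of the difference -3.72 to -0.568) and by 1.58 points in the NMDA list (-2.90 to -0.370). Within 10 kb, 3.89% of control desert summits had an NMDA summit, against 8.15% of all control peaks, and 3.23% of NMDA desert summits had a control summit, against 7.35% of all NMDA peaks. Within 100 kb the desert shares were 25.2% of control and 22.3% of NMDA summits, against 32.7% and 30.4% of all peaks.

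Of the 7 pairs, 3 stood apart by their q. The pair on chromosome 2, at 98666505 to 98667515 in the control list, had folds of 1.27 in control and 1.31 in NMDA but −log10 q values of 668.1 and 817.6, the highest of all desert peaks; it lay 1035 kb from Lrrc4c. Both other pairs lay at the start of chromosome 9: the 4.70-fold control peak given above, and a pair at 3002442 to 3002699 with folds of 1.43 and 1.44 and −log10 q values of 5.87 and 5.72. The 4 remaining pairs had folds of 2.42 to 2.92. They lay 239 kb from Sox2, a transcription factor of neural progenitors (chromosome 3, control peak at 34410826 to 34411325), 734 kb from Rfpl4b (chromosome 10, 38086236 to 38086522), 407 kb from the cyclin gene Ccnh inside the lncRNA gene Gm34196 (chromosome 13, 84782609 to 84783083) and 472 kb from the synaptic organizer gene Cbln2 (chromosome 18, 87190013 to 87190403). Without these 3 pairs and the chromosome 17 locus described next, the shared part was 0.584% of control and 0.480% of NMDA desert peaks, and the control list had no strong desert peak.

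In the control list, deserts also held most of the few peaks with a strong q despite a low fold. A fold under 2 with a −log10 q of at least 3 was seen in 8 control desert peaks, against 10 in the whole control list (0.302% of it), and in 2 NMDA desert peaks, against 5 in the whole NMDA list (0.137%). Of the 8 control peaks, 6 formed one locus of 5643 bp at 39843104 to 39848746 of chromosome 17, with folds of 1.25 to 1.55 and −log10 q of 3.17 to 24.4. It spans Rn18s-rs5, a pseudogene annotated as related to ribosomal RNA, and the start of the lncRNA gene AY036118, 102 to 107 kb from Esp38. No NMDA peak was called there, and the nearest was 108 kb away. A further control peak, outside the fold limit, had a −log10 q of 23.8 at 2.22-fold (5860455 to 5860747 of chromosome 3, 282 kb from Pex2); it was picked after its values were seen. The signal of the NMDA libraries at the chromosome 17 locus was not tested, as only called peaks were used.

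Groups of at least 3 desert peaks of one list within 100 kb numbered 4 in the control list, the chromosome 17 locus among them, and 7 in the NMDA list. The number that peak density alone would give was not computed. The other control groups had 3 peaks each, on chromosome 6 between Nxph1 and Ndufa4, on chromosome 10 at 110 kb from the calcium pump gene Atp2b1, and on chromosome 13 inside Gm34196. Of the NMDA groups, 6 had 3 peaks each. They were nearest to Pcdh10, Cenpc1, Npvf, Tmpo, Arl4a and Cadm2, and folds ran from 2.14 to 4.13, the highest of them near Arl4a. The NMDA group with the most peaks, 5, was at Mir99ahg.

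That run covered 77342930 to 77424259 of chromosome 16, inside the lncRNA gene Mir99ahg, 226 kb or more from Usp25. Its folds were 2.58, 2.69, 2.59, 2.32 and 3.23 in order of position. The −log10 q values were 1.40, 1.69, 1.56, 0.928 and 4.21, so the 2.32-fold peak did not reach a q below 0.05. A sixth NMDA peak, of 3.15-fold at 77595030 to 77595422, lay 3.80 kb before the hairpin of Mir99a and 4.54 kb before that of Mirlet7c-1, outside the annotated Mir99ahg. The control list had 1 peak in Mir99ahg, of 3.05-fold, and 1 of 3.29-fold at 34.4 kb from Mirlet7c-1. The mature sequences of Mir125b-2, at 77646279 to 77646339, lie closer to that second control peak (77634019 to 77634267) than Mirlet7c-1 does. Mir125b-2 was not among the hairpins counted near peaks below. All folds in this region were modest, and none of the peaks of the 2 lists overlapped.

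The Mir100hg region on chromosome 9, with the sequence printed above, had 4 NMDA peaks and 0 control peaks. The peak at the gene start was 2.80-fold (41376205 to 41376419), and 3 peaks inside the gene were 2.15, 3.25 and 3.01-fold. The last of these lay 4.41 kb from the hairpin of Mir125b-1, and the 3.25-fold peak lay 9.75 kb from Mirlet7a-2 and 15.0 kb from Mir100. In order of position, the −log10 q values of the 4 peaks were 2.03, 0.557, 5.43 and 2.83. The 2.15-fold peak thus did not reach a q below 0.05. The 4 peaks were too far apart to count as a group of at least 3 within 100 kb. These regions were looked at after their values were seen. Of 105 microRNA hairpins in deserts, 6 lay within 10 kb of an NMDA desert peak and 1 within 10 kb of a control desert peak. Within 100 kb the numbers were 14 and 11. Mir125b-2, which is not among the 105, also lies within 100 kb of desert peaks of both lists. Of the 6, Mir99a and Mirlet7c-1 lay near the same peak. The closest was Mir1952 on chromosome 2, 0.573 kb from a 4.52-fold NMDA peak. These counts were not set against the share of desert length near peaks, and the NMDA list holds more desert peaks (837 against 694). The microRNA host gene Mir124-2hg had 1 peak of each list, of 2.88-fold in control and 3.12-fold in NMDA, which did not overlap.

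Noncoding genes were taken as all genes not annotated as protein-coding, which include the immunoglobulin locus Igh, host of desert peaks in both lists. As a whole they covered 12.1% of desert length and held 102 control (14.7%, 12.1 to 17.6%) and 106 NMDA (12.7%, 10.5 to 15.1%) desert peaks. Most of these were in lncRNA genes, which covered 10.2% of desert length and held 93 control and 101 NMDA peaks. Within 1000 bp of a noncoding gene end, which is 2.51% of desert length, lay 31 control (4.47%, 3.05 to 6.28%) and 29 NMDA peaks (3.46%, 2.33 to 4.94%). The control interval lies above the share of length and the NMDA interval includes it. Of the 31 control peaks, 4 belonged to the chromosome 17 locus; without that locus the control share was 27 of 688 (3.92%, 2.60 to 5.66%).

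Longer deserts held peaks more often. Of 1529 deserts, 382 held a control peak and 454 an NMDA peak. Both lists had peaks in 236, which is 61.8% of those with a control peak and 52.0% of those with an NMDA peak, and 929 held neither. The deserts with neither were short, with a median of 0.109 Mb, while those with both had a median of 1.06 Mb. Of the 64 deserts of at least 2 Mb, 54 held peaks of both lists, and their density of 1.01 control and 1.14 NMDA peaks per Mb was close to the 0.974 and 1.17 of all deserts. The deserts named next were picked for their high counts.

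The most NMDA peaks in one desert, 13 against 4 control peaks, lay in the 4.31 Mb of desert sequence between Celf4, an RNA-binding protein gene of neurons, and Pik3c3, a lipid kinase of autophagy, on chromosome 18. They ranged up to 3.50-fold and none was strong. The 3 NMDA peaks farthest from any protein-coding gene, at 2243, 2118 and 2104 kb from Celf4, were among them. The most control peaks, 10 against 4 NMDA peaks, lay in the 2.45 Mb of desert sequence between the neurexophilin gene Nxph1 and Ndufa4, a mitochondrial gene, on chromosome 6, with a median fold of 2.40. There the 4 NMDA peaks had a median of 3.28 and reached 3.98. The largest desert was the 4.34 Mb of desert sequence between the protocadherin genes Pcdh20 and Pcdh9 on chromosome 14. It held the control peak farthest from any protein-coding gene, 2209 kb from Pcdh20 but inside the lncRNA gene Gm33246.

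**Figure D4:**
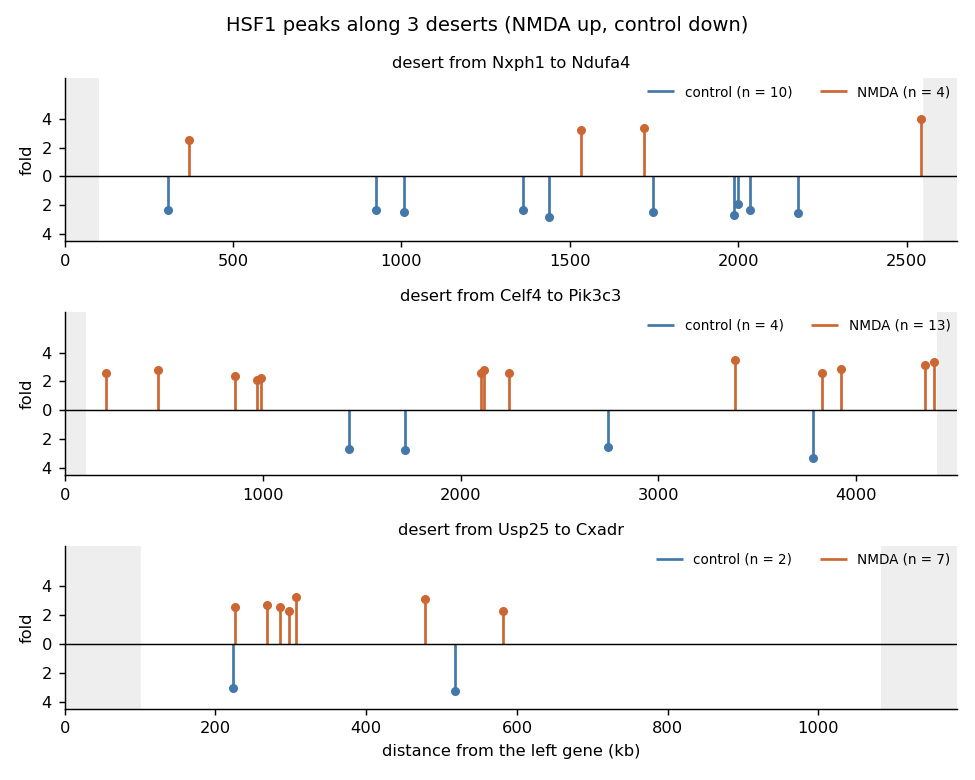
HSF1 peaks along 3 deserts by distance of the summit from the gene at the lower coordinate, in kb, with stem length giving fold enrichment (NMDA upward in orange, control downward in blue). Grey margins lie within 100 kb of a gene; peaks are spread along the Nxph1 to Ndufa4 and Celf4 to Pik3c3 deserts, and 5 of the 7 NMDA peaks between Usp25 and Cxadr stand together at Mir99ahg.

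Across the 19 autosomes, desert density ran from 0.484 per Mb on chromosome 7 to 1.53 on chromosome 13 in the control list, with a median of 1.08. In the NMDA list it ran from 0.714 on chromosome 11 to 1.90 on chromosome 16, with a median of 1.31. Desert peaks were more numerous in the NMDA list on 14 autosomes, equal on 1 and fewer on 4. The fewer were on chromosomes 11 (18 against 20), 12 (46 against 49), 13 (46 against 52) and 17 (19 against 30, of which 6 were the locus above). Peaks of any position were also fewer in the NMDA list on chromosomes 12 (150 against 182), 13 (183 against 197) and 17 (96 against 111). They were more numerous in the NMDA list on every other autosome. The direction in deserts was thus that of all peaks except on chromosomes 11 and 14. Chromosome 11 had 185 NMDA against 145 control peaks of any position. Chromosome 14 had 184 against 169, with 46 desert peaks in each list. Chromosome 5 had 62 against 34 desert peaks, with 241 against 172 peaks of any position, and chromosome 18 had 46 against 26, with 140 against 112. The X chromosome, with 55.5 Mb of desert, had 0 control desert peaks, which allows up to 0.0540 per Mb, and 3 NMDA desert peaks. Peaks of any position were also few there, 3 control and 5 NMDA peaks.

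The genes nearest to desert peaks were compared with lists of neuronal and stress genes, each against the share of desert length nearest to the same genes. Synaptic adhesion and scaffold genes were nearest to 67 control desert peaks (9.65%, 7.56 to 12.1%) and 51 NMDA desert peaks (6.09%, 4.57 to 7.93%), against 6.17% of desert length. The control interval lies above the share of length. Adgrl3 and Adgrl2, latrophilin adhesion receptors, had 6 and 5 control peaks and 3 and 2 NMDA peaks. Cadm2, another adhesion gene, had 4 control and 5 NMDA peaks, and Lrrc4c, a netrin-G ligand, had 3 and 5. The Lrrc4c counts include the chromosome 2 pair of 1.27 and 1.31-fold that stood apart by its q.

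Cadherin and protocadherin genes were nearest to 29 control (4.18%, 2.82 to 5.95%) and 38 NMDA peaks (4.54%, 3.23 to 6.18%), against 5.35% of length. Cdh9 had 6 control peaks, and Pcdh9 had 4 control and 5 NMDA peaks. Developmental transcription factors were nearest to 33 (4.76%, 3.30 to 6.61%) and 34 peaks (4.06%, 2.83 to 5.63%), against 4.51% of length. Mef2c, a regulator of neuronal differentiation, had 4 control peaks, and Zeb2, a regulator of cortical development, had 2 control and 4 NMDA peaks. Both groups were near the share that their length gives.

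Chaperone genes, the classical targets of HSF1, border only 0.176% of desert length. They were nearest to 0 control and 2 NMDA desert peaks, both by Chordc1, a cochaperone gene, with a median of 3.01-fold and the nearer at 361 kb. Immediate early genes, which respond to neuronal activity, were nearest to 2 control peaks, both by Nr4a2, and to 1 NMDA peak, by Jun. These were 0.288% (0.0349 to 1.04%) of control and 0.119% (0.00302 to 0.664%) of NMDA desert peaks, against 0.332% of desert length. Both intervals include the share of length. Olfactory and vomeronasal receptor genes, which are silent in most neurons, were nearest to 0 peaks of either list, with 0.407% of desert length. The intervals reach 0.530% for control and 0.440% for NMDA, so both include that share and no depletion can be read from the counts.

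The peaks closest to the limit of the rule did not stand out. Just inside it, control peaks lay 101 to 102 kb from Arhgef26, Rspo3 and Magi1 with folds of 2.57, 3.05 and 2.77, and NMDA peaks 100.01 to 101 kb from Msr1, Crim1 and Phf3 with folds of 2.37, 3.12 and 2.90. Just outside it, control peaks lay 98.2 to 99.4 kb from Iftap, Rbm43 and Ube2e3 with folds of 2.88, 2.98 and 2.28, and NMDA peaks 98.8 to 99.8 kb from Cnbd1, Map3k7 and Hs3st1 with folds of 3.12, 2.90 and 2.90.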

How the data were processed

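The authors deposited 1 peak list per condition. FastQC, Trimmomatic, BWA, SAMtools and MACS2, with builds mm10 and GRCm38.p6, are named per the submitters' processing notes, without versions. The sources used here do not say how replicates were combined. Fold enrichment, as deposited, is a ratio of ChIP signal over background, the authors' p-values and q-values are −log10 values, and the deposited score was not used. Read depth is unknown. Gene starts and ends came from a GRCm38.p6 table (21519 protein-coding genes, after 108 with patch coordinates below base 3000000 were dropped; 49210 genes of all kinds). Peaks off chromosomes 1 to 19 and X, 4 control and 2 NMDA, were left out.

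Counts, medians and shares were computed with Python 3.11.15, pandas 2.3.3, scipy 1.17.1 and statsmodels 0.14.6, checked on simulated data. Intervals are at 95%. Samples were grouped by their labels, and each list was taken as the condition in its name. Named peaks were the 10 strongest and 5 farthest of each list (the extremes are printed), those shared, those at the limit and groups of at least 3. Members and lists were chosen with earlier results of these data known. Alternatives covered distance, gene set, q, summit, chromosomes, fold and overlap.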

Additional observations from a re-analysis of the deposited data

How the results depend on the processing

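Of 106 planned recalculations, 75 stayed within the interval of the reported value or, for a number, within 1.5 times. With deserts over 250 kb from a gene, the lists held 467 NMDA and 431 control peaks (12.8% and 13.01%), the NMDA minus control share turned to -0.198 points, and the control difference in strong peaks between deserts and the sequence between genes turned to 0.0208 points. Over 50 kb, shares were 30.0% and 25.7%, their difference 4.33 points and the control difference in strong peaks 0.0459 points. With genes of all kinds as bounds, 240 NMDA and 183 control peaks were left (6.59% and 5.53%), with 0% shared in both lists and 0% strong in control. With q below 0.05, 460 control peaks were left, median fold was 2.80 (NMDA) and 2.77 (control), and median width 285 and 290.5 bp. Strong peaks were 23.3% (NMDA) and 13.1% (control) at a fold of at least 3, 0.956% and 0% at 5, and 6.81% and 11.0% in the top 10%. The NMDA difference in strong peaks between deserts and the sequence between genes was -6.62 points at 3 and -5.96 in the top 10%, where the control difference was -1.91. It was below 0 in 11 of 11 settings for NMDA (-6.62 to -1.11, the latter with genes of all kinds as bounds and the only one whose interval included 0, -3.10 to 2.03) and in 8 of 11 for control. Leaving out the low-fold loci and the start of chromosome 9, chosen after seeing the data, gave 0% strong control peaks and kept the other 14 of 15 values within those limits. The causes of these changes were not tested beyond the smaller or larger set of peaks each setting leaves.

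No paired analysis was possible because each condition has a single list without values per replicate; leaving out a replicate was not possible for the same reason. The planned search of peak sequences was not run. Unknown depth limits every statement about a missing peak.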
